A study of Mus musculus with 12 samples.

Results

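The genes described here are the signal transducer Stat3 and 8 genes of the receptor pathway that activates it: the receptor subunits Il6st, Il6ra, Osmr and Lifr, the kinase Jak2, the feedback inhibitor Socs3 and the kinases Pim1 and Pim3. They were chosen by gene symbol and are 9 of the 55450 genes in the deposited count table, and all 9 passed the filter on low counts. The RNA came from outer cortex dissected from the kidneys of 12 mice of the FVB/N strain, all 12 weeks old, in 4 groups of 3. WT mice and Tg26 mice, which are hemizygous for an HIV-1 transgene lacking gag and pol and develop a model of HIV-associated nephropathy, were either left as controls or given C16, an inhibitor of the double-stranded RNA-activated kinase PKR. C16 was injected into the peritoneum at 10 µg per kg body weight in 0.5% DMSO in PBS, on 3 occasions a week between weeks 6 and 12. What the control mice received is not given in the sources used here. The transgene is under the viral promoter and is transcribed in many kidney cell types, not in a chosen one. Its transcripts were not analysed here.

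Cytokines of the IL-6 family signal through a receptor chain that pairs with the shared chain gp130, the product of Il6st. Such chains include IL-6 receptor alpha, oncostatin M receptor and LIF receptor. The receptors carry JAK kinases, which phosphorylate STAT3, and phosphorylated STAT3 enters the nucleus and switches on genes that include Socs3, whose protein binds gp130 and JAK and dampens the signal. In the kidney this pathway is known for the acute-phase response of injured tubule cells and for its activity in glomerular disease. RNA levels do not measure the phosphorylation of STAT3.

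The 12 libraries held 19877877 to 27000388 counts, and values are given below as CPM, counts relative to the library total, after scaling by TMM, a method that assumes most genes do not differ between libraries. Of the genes in the table, 16094 were tested. Proximal tubule markers had summed levels of 48958 to 54958 CPM in WT, 17489 to 36302 CPM in Tg26 and 39244 to 48079 CPM in C16-treated Tg26, and none of the 12 listed markers was at 0 in any library. All 12 macrophage markers were detected in every library, with summed levels of 102 to 136 CPM in WT, 696 to 1191 CPM in Tg26, 131 to 178 CPM in C16-treated WT and 283 to 569 CPM in C16-treated Tg26. All 7 fibroblast markers were detected as well, at 114 to 132 CPM in WT, 468 to 1966 CPM in Tg26, 102 to 133 CPM in C16-treated WT and 248 to 398 CPM in C16-treated Tg26. Tg26 replicate 1 stood apart, with the lowest proximal tubule sum, the highest macrophage and fibroblast sums and the largest TMM factor, 1.22 against 0.901 to 1.08 in the other libraries. Transcripts from the Y chromosome were present in all 12 libraries, and the mean of 4 Y-linked genes was also tried as a covariate. All 4 had log2 fold changes below 0 in Tg26 against WT, and 1 was lower at an edgeR adjusted p under 0.05. That covariate is therefore not separate from genotype, and as no library lacked these transcripts it does not mark sex.

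In Tg26 cortex the oncostatin M receptor Osmr, the IL-6 receptor Il6ra and the feedback inhibitor Socs3 rose and Pim3 fell. Socs3 was 8.77-fold higher than in WT, Osmr 3.55-fold and Il6ra 2.07-fold, and Pim3 was 1.42-fold lower (edgeR's quasi-likelihood test, adjusted p under 0.05 over all genes tested). The other 5 genes, Stat3 itself included, did not pass the test. Of all genes tested, 26.2% were called in this comparison, 15.7% as higher and 10.5% as lower. The groups did not overlap for 5 of the 9 genes, these 4 and Lifr, where 39.6% of all genes tested did not overlap. The median log2 fold change of the 9 genes was 0.33, and over all genes tested it was -0.01. For Tg26 against WT edgeR called 4219 genes with all 12 libraries and 2663 without Tg26 replicate 1. It called 3068, 2475 and 3132 without WT replicates 1, 2 and 3 in turn. With only the groups compared it called 2053, and with the mean of the Y-linked genes as a covariate 1672. In C16-treated Tg26 mice Osmr was 2.25-fold lower than in untreated Tg26 mice, the only call among the 9, where 3.42% of all genes tested were called. In WT mice none of the 9 passed the test with C16.

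**Figure D1:**
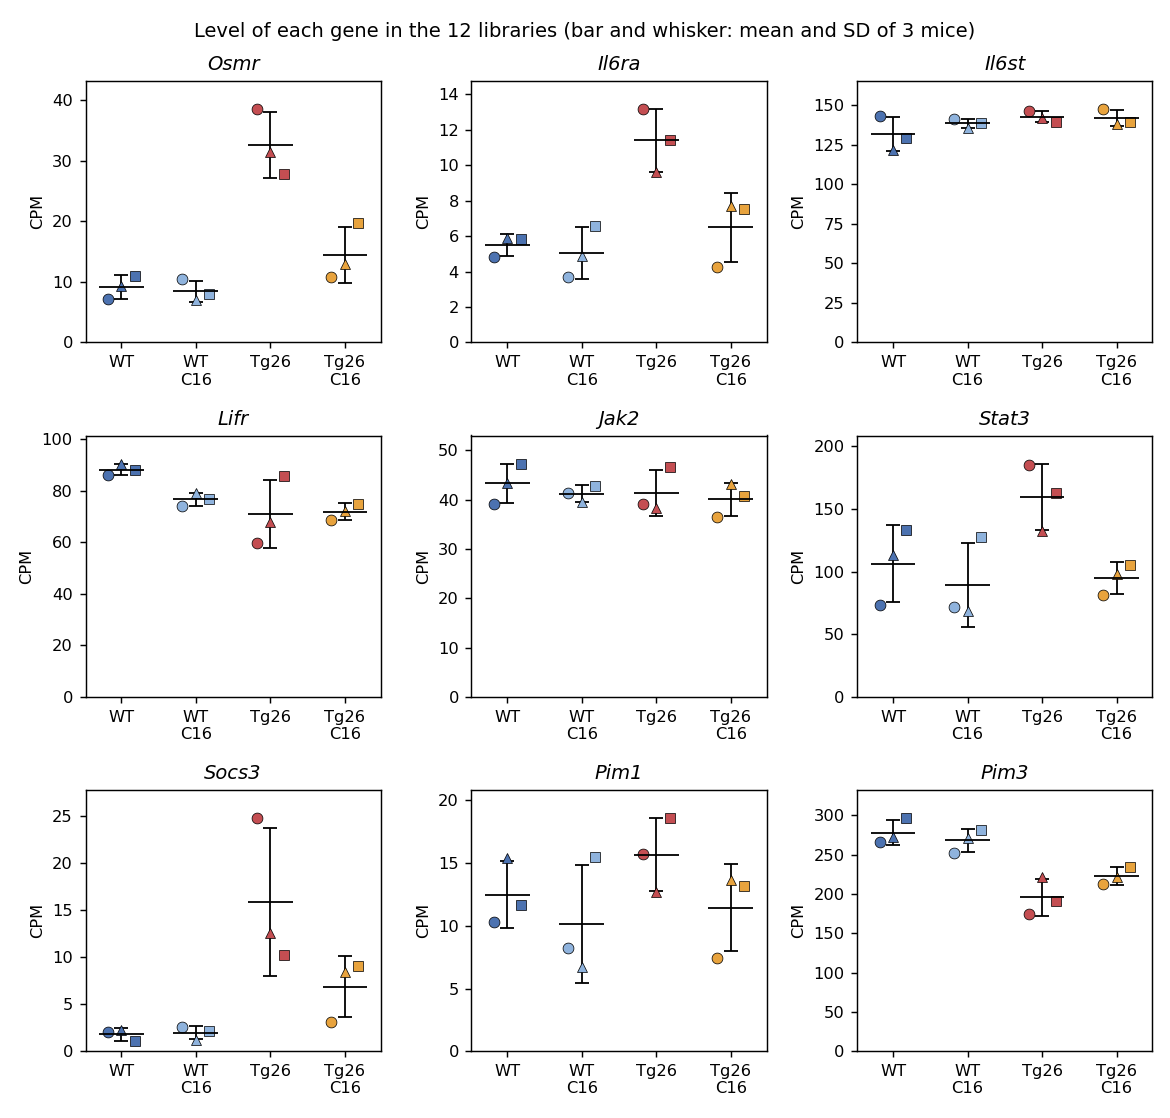
Level in CPM (vertical axes, starting at 0) of the 9 genes in each of the 12 libraries, by group; circles, triangles and squares are replicates 1, 2 and 3, and the bar and whisker give the mean and SD of 3 mice. The 3 Tg26 libraries lie above all 3 WT libraries for Osmr, Il6ra and Socs3 and below them for Pim3 and Lifr.

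**Figure D2:**
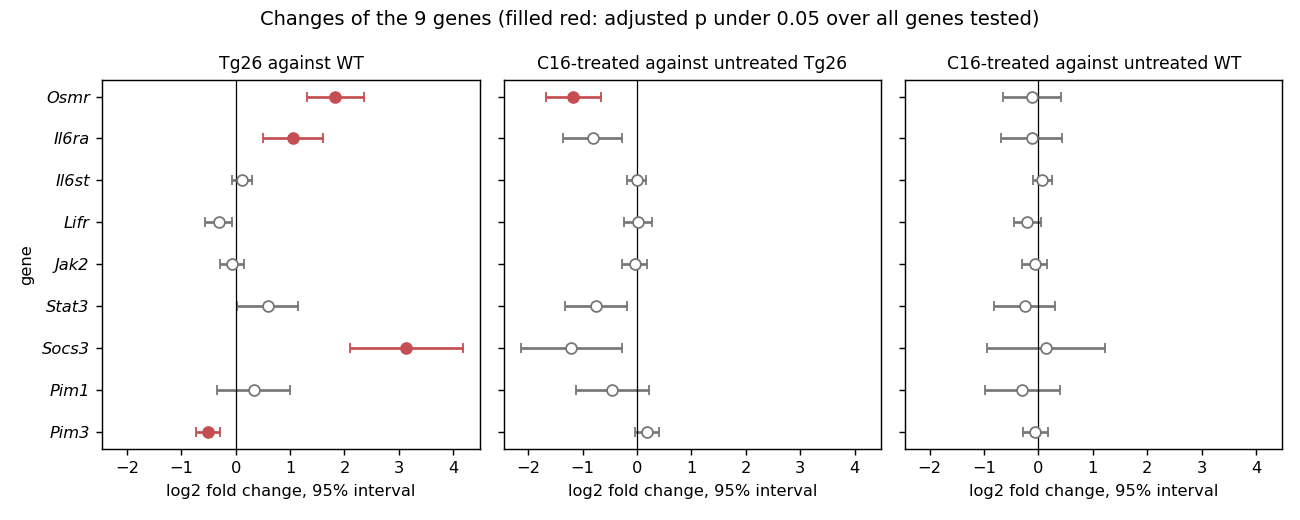
Log2 fold change (horizontal axes) with its 95% confidence interval for the 9 genes in 3 comparisons; filled red points had an adjusted p under 0.05 over all genes tested. In Tg26 against WT, Socs3 (3.13), Osmr (1.83) and Il6ra (1.05) lie to the right of 0 and Pim3 (-0.51) to the left; with C16 in Tg26 mice only Osmr (-1.17) is filled.

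The ligands that start the pathway were measured at low levels. Of 12 listed ligand genes, 6 were tested, and 4 of these rose in Tg26 with a median log2 fold change of 2.0 over the tested genes. Lif, which signals through Lifr and gp130, was at 0.641, 0.338 and 0.241 CPM in WT replicates 1 to 3 and at 6.85, 3.03 and 3.24 CPM in Tg26, a 10.6-fold rise (edgeR adjusted p = 0.00124). Clcf1, a cytokine of the CNTF receptor, was at 2.93, 5.70 and 5.88 CPM in WT and at 33.6, 13.4 and 20.5 CPM in Tg26 (4.66-fold, edgeR adjusted p = 0.00297). Replicate 1 was the highest Tg26 library for both. Ebi3, a subunit of IL-27 and IL-35, rose 3.44-fold (edgeR adjusted p = 0.0175), from 0.253 to 0.458 CPM in WT to 0.883 to 1.61 CPM in Tg26. Ctf1 and Cntf, the genes for cardiotrophin 1 and ciliary neurotrophic factor, had log2 fold changes of -0.09 and -0.04 and did not pass the test. Without Tg26 replicate 1, 3 of the 6 ligand genes were called, Lif (7.57-fold) and Clcf1 (3.48-fold) among them, and Ebi3 was not (2.73-fold, edgeR adjusted p = 0.0752). Ebi3 was not called without WT replicate 2 or 3 either, nor with the mean of the Y-linked genes as a covariate.

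The ligands of the 2 receptor chains that rose, IL-6 and oncostatin M, were too low to be tested. Il6 had no count in any WT or C16-treated WT library. It had 11 counts in Tg26 replicate 1 and 0 in the other 2 Tg26 libraries, and 1, 3 and 0 counts in C16-treated Tg26. A count of 0 in a library allows up to 3 counts and covers counting error only. Osm had 1, 7 and 4 counts in WT, 19, 11 and 6 in Tg26, 1, 1 and 2 in C16-treated WT and 3, 9 and 10 in C16-treated Tg26, so that WT and Tg26 overlapped. Il11, whose values were seen before it was named here, had 1 to 2 counts in WT and 23, 9 and 5 in Tg26.

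Osmr, the receptor chain for oncostatin M, lies on the minus strand of chr15:6813577-6874969 (mm10). It was at 7.14, 9.37 and 11 CPM in WT replicates 1 to 3, at 38.5, 31.5 and 27.8 CPM in Tg26, at 10.4, 6.96 and 7.99 CPM in C16-treated WT and at 10.8, 13.0 and 19.6 CPM in C16-treated Tg26. Every Tg26 library was above every other library, and the C16-treated Tg26 libraries overlapped only WT. The Tg26 mean was 32.6 ± 5.45 CPM (SD, n = 3) against 9.18 ± 1.95 CPM in WT, a log2 fold change of 1.83 ± 0.24 (SE, edgeR adjusted p = 5.39e-04). With C16 the Tg26 mean was 14.5 ± 4.61 CPM, a log2 fold change of -1.17 ± 0.23 (SE, edgeR adjusted p = 0.0356). The rise in Tg26 held without any of the 12 libraries in turn, at log2 fold changes of 1.67 to 1.97. The call for C16 did not: the edgeR adjusted p of Osmr was 0.0564 without WT replicate 2, 0.103 without Tg26 replicate 1, 0.0530 without C16-treated WT replicate 2, 0.151 without C16-treated Tg26 replicate 1 and 0.111 without C16-treated Tg26 replicate 2. It was also 0.134 when only the groups compared were fitted and 0.0574 with the mean of the Y-linked genes as a covariate. Over all genes tested, edgeR called 550 for this comparison with all 12 libraries and 0 without C16-treated Tg26 replicate 1 or 2. It called 0 with only the groups compared, 10 without Tg26 replicate 1, 67 without WT replicate 2 and 94 with the covariate. Without C16-treated WT replicate 2 it called 100. The macrophage and fibroblast marker sums moved with Osmr in both comparisons, and their part in it was not tested. In tissue RNA, fewer cells of a type and less RNA per cell cannot be told apart.

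Il6ra, which encodes the chain that binds IL-6, lies on the minus strand of chr3:89864059-89913196. Its level was 4.81, 5.91 and 5.83 CPM in WT, 13.2, 9.63 and 11.4 CPM in Tg26, 3.68, 4.90 and 6.59 CPM in C16-treated WT and 4.27, 7.70 and 7.52 CPM in C16-treated Tg26. The Tg26 libraries were the 3 highest of the 12, and the other 3 groups overlapped. The log2 fold change of Il6ra in Tg26 was 1.05 ± 0.25 (SE, edgeR adjusted p = 0.0115), from 5.51 ± 0.615 to 11.4 ± 1.77 CPM (SD, n = 3). With C16 in Tg26 it was -0.81 ± 0.25 (edgeR adjusted p = 0.0778), with groups that did not overlap but no call. With the mean of the Y-linked genes as a covariate, the rise of Il6ra in Tg26 had an edgeR adjusted p of 0.0691.

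Il6st, the gp130 gene on the plus strand of chr13:112464070-112510086, was at 143, 122 and 129.6 CPM in WT, 146, 142 and 139.7 CPM in Tg26, 141, 136 and 139 CPM in C16-treated WT and 148, 138 and 139.7 CPM in C16-treated Tg26. All 4 groups overlapped. The Tg26 against WT difference was 0.12 on the log2 scale with a 95% interval of -0.06 to 0.30 (edgeR adjusted p = 0.316), an interval below those of Osmr and Il6ra. Scaled by library totals alone, Il6st was called (log2 fold change 0.43, edgeR adjusted p = 0.00552), under the shift of all genes described for Stat3. With C16 in Tg26 the interval was -0.19 to 0.17.

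Lifr, the LIF receptor chain on the plus strand of chr15:7090614-7197489, was at 86.0, 90.5 and 87.8 CPM in WT and at 59.5, 67.6 and 85.5 CPM in Tg26. All 3 Tg26 libraries were below the WT libraries, though replicate 3 was below the lowest of them by less than 1 CPM. The log2 fold change was -0.31 ± 0.11 (SE, edgeR adjusted p = 0.0629), which was not called. Lifr was called with DESeq2 (adjusted p = 0.0359), with limma-voom and quality weights (0.0129) and in edgeR without Tg26 replicate 3 (0.00347). The libraries of C16-treated WT were at 74.0, 79.1 and 76.8 CPM and those of C16-treated Tg26 at 68.6, 72.1 and 74.8 CPM, also below all WT libraries, with edgeR adjusted p of 0.701 and 0.216 against WT.

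Of the other receptors of the family, Il27ra, the IL-27 receptor, rose from 0.633 to 0.961 CPM in WT to 2.21 to 4.21 CPM in Tg26 (3.62-fold, edgeR adjusted p = 0.00417). It was the only call among the 3 of 5 that could be tested, with and without Tg26 replicate 1 (2.88-fold without it). Il11ra1, the IL-11 receptor, was at 73.0, 62.6 and 55.8 CPM in WT and at 47.3, 57.5 and 44.9 CPM in Tg26 (log2 fold change -0.35, edgeR adjusted p = 0.0823). Cntfr, the CNTF receptor, ranged from 2.01 to 9.83 CPM within Tg26 and did not pass the test (edgeR adjusted p = 0.891). A further list held receptors outside the family that also signal through STAT3, and 4 of its 6 tested genes rose and none fell, with a median log2 fold change of 1.2. They were Il21r (3.15-fold) and Il10ra (3.03-fold), receptors of lymphoid and myeloid cells, Csf3r (3.02-fold), the receptor for the neutrophil growth factor G-CSF, and Lepr (1.70-fold), the leptin receptor. Without Tg26 replicate 1, 3 of the 6 were called, with a median of 1.09, and Csf3r was not (2.46-fold, edgeR adjusted p = 0.075). Without WT replicate 2 or without WT replicate 3, 2 of the 6 were called, Il21r and Il10ra in each case, and with the covariate of Y-linked genes none was. The call of Lepr was lost without 9 of the 12 libraries in turn. Of 6 neutrophil markers 3 passed the filter, S100a8, S100a9 and Ngp, and none of them was called, with a median log2 fold change of -0.46. The summed level of the 6 was 2.75 to 4.85 CPM in WT, 2.50 to 3.34 CPM in Tg26, 1.27 to 28.7 CPM in C16-treated WT and 1.34 to 5.75 CPM in C16-treated Tg26, and Ly6g, Mpo and Elane were each at 0 in at least 1 library of every group.

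Jak2, a kinase that docks on gp130, lies on the plus strand of chr19:29251828-29313080. Its level was 39.2, 43.4 and 47.3 CPM in WT, 39.1, 38.3 and 46.6 CPM in Tg26, 41.4, 39.5 and 42.8 CPM in C16-treated WT and 36.5, 43.2 and 40.7 CPM in C16-treated Tg26. The groups overlapped in every comparison. The Tg26 against WT difference was -0.07 on the log2 scale with a 95% interval of -0.30 to 0.16, and its sign turned when libraries were scaled by their totals alone (0.24). Among the other 3 kinases, Jak3, which serves lymphocyte cytokine receptors, rose 2.44-fold (edgeR adjusted p = 0.00136), from 9.92 to 10.2 CPM in WT to 33.5, 17.8 and 22.4 CPM in Tg26. Tyk2, which also docks on gp130, rose 1.43-fold (edgeR adjusted p = 0.00878). Without Tg26 replicate 1, Jak3 (1.98-fold) and Tyk2 (1.34-fold) were both called, and with the covariate of Y-linked genes Tyk2 was not (edgeR adjusted p = 0.0632). Jak1, the kinase gp130 is known to depend on most, was at 188 to 194 CPM in WT and 192 to 196 CPM in Tg26 and did not pass the test (edgeR adjusted p = 0.88).

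Stat3 lies on the minus strand of chr11:100885098-100939540. Its level was 73.2, 113 and 133 CPM in WT, 185, 132 and 163 CPM in Tg26, 71.4, 68.5 and 128 CPM in C16-treated WT and 81.0, 98.4 and 105 CPM in C16-treated Tg26. WT replicate 3 was above Tg26 replicate 2, so the groups overlapped, and the range of Stat3 among the 3 WT mice was wider than the gap between the WT and Tg26 means. The means were 106 ± 30.5 CPM in WT and 160 ± 26.4 CPM in Tg26 (SD, n = 3), a 1.5-fold difference with a 95% interval of 1.02 to 2.22 (edgeR adjusted p = 0.115). Scaled by library totals alone, Stat3 was called (log2 fold change 0.91, edgeR adjusted p = 0.0239), but that scaling moved the median of all genes tested from -0.01 to 0.29 and the calls from 2528 higher and 1691 lower to 5267 higher and 274 lower. With C16 in Tg26 the Stat3 groups did not overlap, and the log2 fold change was -0.75 ± 0.26 (SE, edgeR adjusted p = 0.101). Stat3 shares 72 exon bases with Stat5a on the opposite strand. The kit marks strand, but the strand setting of the counting is not given in the sources used here, and Stat5a had 7232 counts over the 12 libraries against 34048 for Stat3.

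Of the 6 other STAT genes, 2 rose in Tg26 and none fell. Stat2, a transducer of interferon signals, was at 14.8, 17 and 16.7 CPM in WT and at 29.0, 21.5 and 18.4 CPM in Tg26, with no overlap (1.42-fold, edgeR adjusted p = 0.0319). Stat5b had a log2 fold change of -0.41 (edgeR adjusted p = 0.112) and Stat4 of 1.0 (0.224). These calls were not stable: edgeR called none of the 6 without Tg26 replicate 1, without any 1 of the 3 WT libraries or without C16-treated Tg26 replicate 2, nor when only the groups compared were fitted, nor with the covariate of Y-linked genes.

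Socs3 had the largest change of the 9 genes. It lies on the minus strand of chr11:117966079-117970047 and was at 2.01, 2.32 and 1.06 CPM in WT, 24.8, 12.6 and 10.3 CPM in Tg26, 2.56, 1.27 and 2.15 CPM in C16-treated WT and 3.17, 8.40 and 9.07 CPM in C16-treated Tg26. The order of the groups was Tg26, C16-treated Tg26, then the WT groups, and only the WT groups overlapped each other. The Tg26 mean was 15.9 ± 7.83 CPM (SD, n = 3) against 1.80 ± 0.658 CPM in WT, a log2 fold change of 3.13 ± 0.48 (SE, edgeR adjusted p = 0.00107). Without Tg26 replicate 1, which had the highest level, the fold change of Socs3 remained called, and over all 12 libraries left out in turn it was between 2.65 and 3.37 on the log2 scale. With C16 the Tg26 mean was 6.88 ± 3.23 CPM and the log2 fold change -1.21 ± 0.43 (SE, edgeR adjusted p = 0.109). C16-treated Tg26 replicate 1, the lowest library of its group for Socs3, Osmr, Il6ra and Stat3, had the lowest macrophage sum of the 3, 283 CPM, and the highest proximal tubule sum, 48079 CPM, and the part of cell makeup in these values was not tested.

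The RefSeq promoter window of Socs3 is shown because it alone among the 9 genes had, in the 250 bases before its RefSeq start, the motif TTCNNNGAA, the palindrome that STAT dimers recognise. In the annotation the authors counted on, Socs3 starts further upstream, at chr11:117970047. The stretch shown thus lies inside that gene, outside its exons. The match starts 154 bases before the RefSeq start, and the exon-free part of that window, chr11:117969452-117969616 (GRCm38.p6, minus strand, 5′ to 3′, motif in capitals), reads as follows.
Socs3: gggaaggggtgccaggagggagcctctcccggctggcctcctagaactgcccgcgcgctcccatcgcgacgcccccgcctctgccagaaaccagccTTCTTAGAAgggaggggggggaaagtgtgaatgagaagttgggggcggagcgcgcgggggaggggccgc
The motif reads the same on both strands and was in at least 1 window of 7.40% of the 11641 tested genes with a promoter sequence and in 7.02% of all 32851 windows. Of 24 STAT3 target genes with a promoter sequence it was in 3, Fga and Fgb of the fibrinogen chains and Icam1, a leukocyte adhesion molecule. Their sites are shown with 16 bases on each side, from chr3:83025903-83025943 (plus strand), chr3:83050001-83050041 (minus strand) and chr9:21015882-21015922 (plus strand).
Fga: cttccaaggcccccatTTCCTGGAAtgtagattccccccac
Fgb: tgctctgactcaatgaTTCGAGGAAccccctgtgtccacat
Icam1: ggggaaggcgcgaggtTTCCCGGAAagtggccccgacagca
A match is a description of the letters and not a bound site. Icam1, at 24.5, 24.7 and 26.5 CPM in WT and 87.0, 50.5 and 51.8 CPM in Tg26, rose 2.50-fold (edgeR adjusted p = 0.00292), and Fgb rose from 1.60 to 3.89 CPM to 54.2, 4.99 and 9.20 CPM (8.95-fold, edgeR adjusted p = 0.0123). Without Tg26 replicate 1 the rise of Icam1 was 2.02-fold (edgeR adjusted p = 0.00893) and that of Fgb 2.76-fold (edgeR adjusted p = 0.0445). Fgb was not called without WT replicate 2 (edgeR adjusted p = 0.0552), when only the groups compared were fitted (0.0572) or with the covariate of Y-linked genes (0.11). Fga ranged from 31.8 to 128 CPM in WT and from 77.3 to 575 CPM in Tg26 and was not called (edgeR adjusted p = 0.0896). Fibrinogen is made mainly by liver. The summed level of 5 hepatocyte markers was 47.8 to 115 CPM in WT and 48.6 to 88.4 CPM in Tg26, and none of the 5 was called.

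The list of other inhibitors, 14 of 16 genes tested, did not move as Socs3 did. Socs2, a brake on growth hormone signals, rose 2.76-fold (edgeR adjusted p = 0.0103), from 3.25 to 4.86 CPM in WT to 15.6, 7.32 and 11.6 CPM in Tg26. Pias2, a SUMO ligase, fell 1.25-fold, a log2 fold change of -0.33 (edgeR adjusted p = 0.0483). The call of Pias2 was lost without 10 of the 12 libraries in turn, with limma-voom, without the filter on low counts, with only the groups compared, with the covariate of Y-linked genes and with library totals alone, where its edgeR adjusted p was 0.853. Socs2 was called with each of the 12 libraries left out in turn, at 2.24-fold without Tg26 replicate 1, but not with the covariate of Y-linked genes (edgeR adjusted p = 0.07). The remaining 12 were not called, among them Ptpn1, a phosphatase that acts on JAK kinases (log2 fold change -0.31, edgeR adjusted p = 0.116), and Socs6 (-0.16, 0.128). The median of the 14 was -0.05, next to -0.01 over all genes tested. Library totals alone gave 5 higher and none lower in this list.

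Pim1 and Pim3 encode related survival kinases, and Pim1 is a known STAT3 target. Pim1, on the plus strand of chr17:29490753-29496112, was at 10.3, 15.4 and 11.7 CPM in WT, 15.7, 12.7 and 18.5 CPM in Tg26, 8.20, 6.70 and 15.5 CPM in C16-treated WT and 7.44, 13.6 and 13.2 CPM in C16-treated Tg26. Every group of Pim1 overlapped every other. Its log2 fold change in Tg26 was 0.33, with a 95% interval of -0.34 to 1.0 (edgeR adjusted p = 0.464). Pim3, on the plus strand of chr15:88862186-88865726, was at 266, 272 and 297 CPM in WT, 175, 221 and 191 CPM in Tg26, 252, 271 and 281 CPM in C16-treated WT and 213, 221 and 235 CPM in C16-treated Tg26. Both Tg26 groups of Pim3 lay below both WT groups. The mean was 196 ± 23.4 CPM in Tg26 and 278 ± 16.3 CPM in WT (SD, n = 3), a log2 fold change of -0.51 ± 0.10 (SE, edgeR adjusted p = 0.00512). The call of Pim3 was lost when libraries were scaled by their totals alone (log2 fold change -0.20, edgeR adjusted p = 0.125) and when only WT and Tg26 were fitted (adjusted p = 0.0545). It moved in the direction of the proximal tubule markers, of which 8 of 12 were called and fell, and their part in it was not tested.

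Levels were also set per kilobase of exon, with length taken as the union of all annotated exons of a gene. That union can be longer than the transcript expressed, which lowers the value. On this scale the order of the 9 genes in WT was led by Pim3, at 115 ± 6.73 CPM per kb (SD, n = 3). Il6st (11.9 ± 0.968), Stat3 (11.2 ± 3.20), Jak2 (8.61 ± 0.803) and Lifr (8.18 ± 0.208 CPM per kb) followed, with ranges that overlapped between neighbours. Pim1 was at 3.70 ± 0.793 CPM per kb. Osmr (0.758 ± 0.161), Il6ra (0.638 ± 0.0712) and Socs3 (0.622 ± 0.228 CPM per kb) were lowest and overlapped one another. In WT the shared chain Il6st thus had a higher level per length than either Il6ra or Osmr, and in Tg26 it was at 12.9 CPM per kb against 1.32 for Il6ra and 2.69 for Osmr. Socs3, at 5.49 CPM per kb in Tg26, was above Pim1 (4.65 CPM per kb) in mean, with overlapping ranges.

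**Figure D3:**
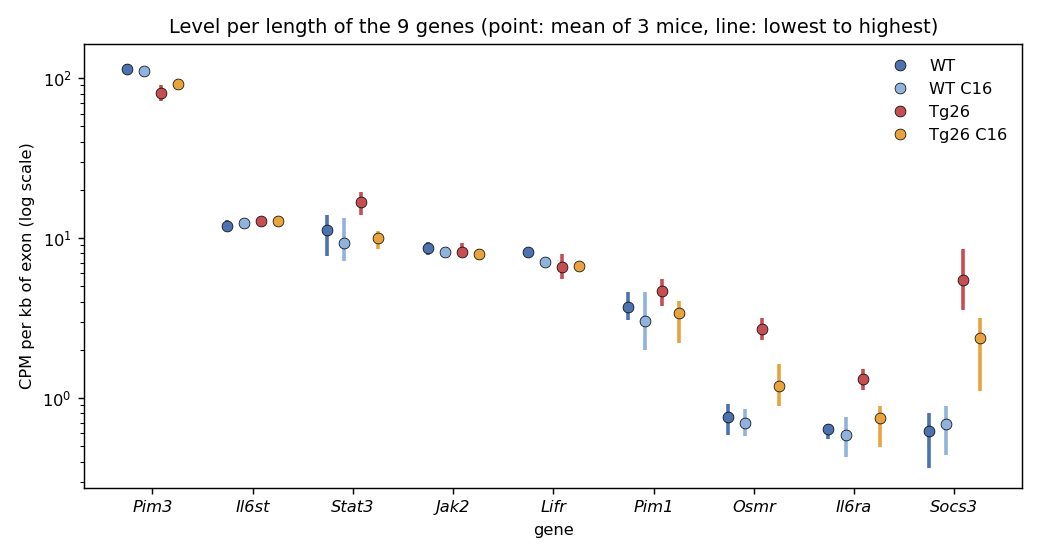
Mean level of the 9 genes in CPM per kilobase of exon (vertical axis, log scale), by group; points are means of 3 mice and lines run from the lowest to the highest mouse. Osmr, Il6ra and Socs3, the lowest in WT at 0.758, 0.638 and 0.622 CPM per kb, are the 3 whose Tg26 values stand clear above the other groups.

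The 28 STAT3 target genes were listed with earlier results of these data known. Their counts are thus no independent test of the pathway. Several of these genes, such as those for acute-phase proteins and cell cycle regulators, also answer to other factors. Of 27 tested, 14 rose and 1 fell in Tg26, and the median log2 fold change was 1.3, next to -0.01 over all genes tested. Cp, the gene for ceruloplasmin, was at 19.3, 17.9 and 25.2 CPM in WT and at 274, 111 and 113 CPM in Tg26 (7.97-fold, edgeR adjusted p = 5.66e-04). Timp1, an inhibitor of matrix metalloproteinases, was at 0.549, 0.0844 and 0 CPM in WT and at 32.0, 6.43 and 4.20 CPM in Tg26 (log2 fold change 6.04 ± 0.99 (SE), edgeR adjusted p = 0.00157). Serpina3n, a protease inhibitor of the acute phase, rose 14.3-fold (edgeR adjusted p = 0.00182), and Lcn2, the gene for the injury marker neutrophil gelatinase-associated lipocalin, rose from 0.366, 0.380 and 2.89 CPM to 142, 30.7 and 43.3 CPM (60.7-fold, edgeR adjusted p = 0.00191). The gene that fell was Vegfa, for the endothelial growth factor, from 239 to 254 CPM in WT to 107, 184 and 185 CPM in Tg26 (log2 fold change -0.63, edgeR adjusted p = 0.024). Scaling by library totals alone gave 17 higher and none lower in this list. Tg26 replicate 1 was the highest of the 12 libraries for 20 of the 27 genes, and without it 9 rose and 1 fell, with a median of 0.80. The rise was then 5.35-fold for Cp, 9.67-fold for Serpina3n and 30.9-fold for Lcn2, and the log2 fold change of Timp1 was 4.61, all 4 still called (edgeR adjusted p of 6.59e-04 to 0.00582). Without WT replicate 2 the list had 7 higher and none lower, with only the groups compared 10 and none, and with the covariate of Y-linked genes 5 and none. Over all genes tested these settings called 2475, 2053 and 1672 genes, against 4219 with all 12 libraries and no covariate. The call of Vegfa was lost without WT replicate 1 (edgeR adjusted p = 0.063), 2 (0.0588) or 3 (0.0523). Lcn2 and Cp are also on the list of injured tubule markers, all 8 of which rose.

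**Figure D4:**
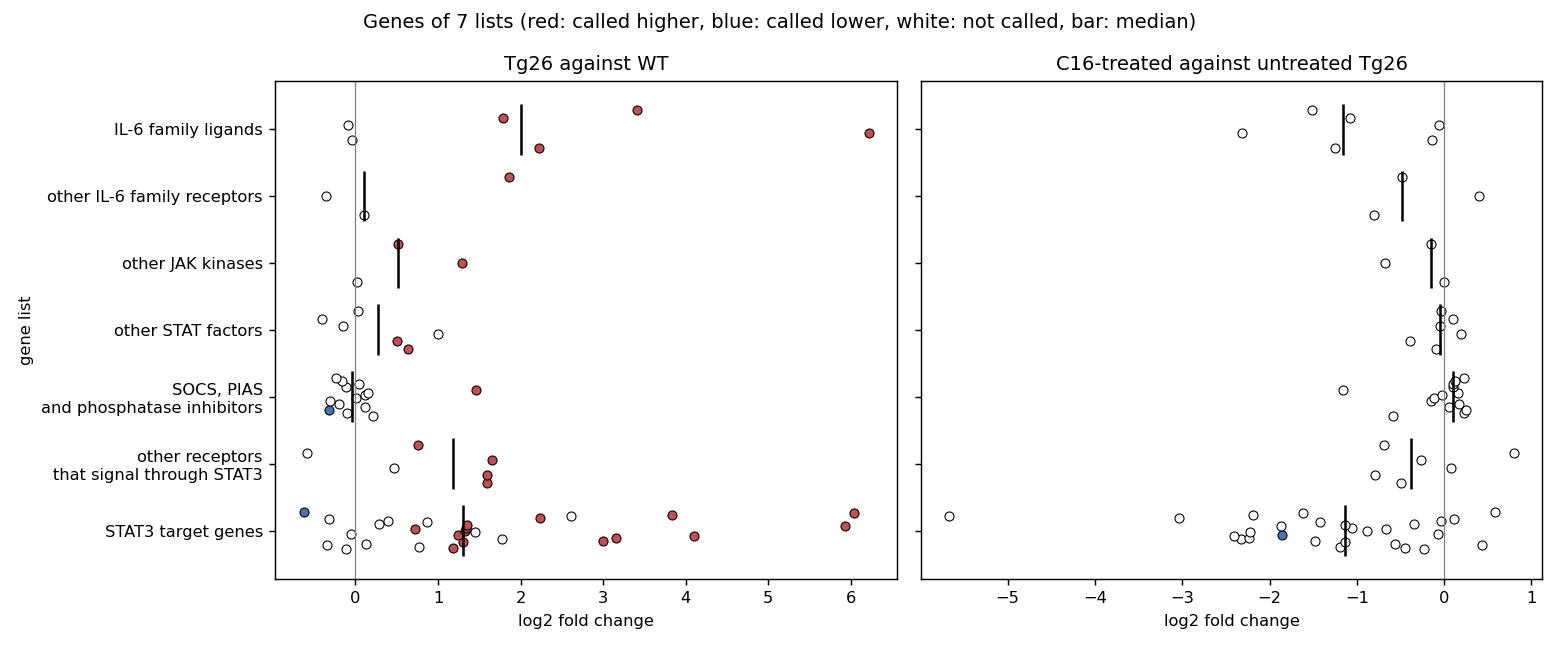
Log2 fold change (horizontal axes) of the tested genes of 7 lists around the pathway, in Tg26 against WT and in C16-treated against untreated Tg26; red points were called higher, blue points lower and white points not called, and the bar is the median of the list. In Tg26 against WT the medians of the ligands (2.0), the STAT3 targets (1.3) and the other receptors that signal through STAT3 (1.2) lie to the right of 0; with C16 in Tg26 a single point, Fos, is coloured.

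With C16 in Tg26 mice, 7 of the 9 genes had log2 fold changes below 0, and their median was -0.45 next to -0.01 over all genes tested. The libraries of 4 genes, Osmr, Il6ra, Stat3 and Socs3, did not overlap and were lower, where 15.1% of all genes tested did so and 27.6% did not overlap in either direction. Only Osmr was called by edgeR. DESeq2, which called 1959 genes in this comparison against 550 by edgeR, called all 4, with adjusted p of 0.0381 for Stat3, 0.0453 for Socs3 and 0.0242 for Il6ra. Lifr (0.02), Il6st (-0.01) and Jak2 (-0.04) had log2 fold changes near 0, and their 95% intervals all lay between -0.27 and 0.27. Pim1 (-0.45, edgeR adjusted p = 0.385) and Pim3 (0.19, edgeR adjusted p = 0.281) did not pass the test, and each overlapped between the groups. These values share the untreated Tg26 libraries with the comparison of Tg26 and WT, so the direction of a gene in the first is not independent of its direction in the second.

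Around the 9 genes, the ligands had log2 fold changes of -1.52 (Lif), -1.25 (Clcf1) and -1.07 (Ebi3) with C16 in Tg26 mice, and none of the 6 tested was called by edgeR, while DESeq2 called 2. The lowest edgeR adjusted p of these 3 was 0.0764, for Lif, at 0.813, 1.49 and 2.26 CPM. Of the STAT3 targets 24 of 27 lay below 0, their median was -1.14, and 1 was called. That gene was Fos, an immediate early transcription factor, at 7.93, 15.6 and 7.10 CPM in untreated and 3.17, 2.52 and 2.74 CPM in treated Tg26 mice (log2 fold change -1.86 ± 0.40 (SE), edgeR adjusted p = 0.0378). Cp (-1.48, edgeR adjusted p = 0.0519) and Serpina3n (-2.19, 0.0572) were not called, although their groups did not overlap. The calls in this list depended on the setting: edgeR without Tg26 replicate 2 gave 11 lower and 1 higher, without Tg26 replicate 1 none, and DESeq2 with all libraries gave 14 lower and 1 higher. Over all genes tested these settings called 1469, 10 and 1959 genes. Of the 12 macrophage markers 3 were called and fell with C16, and of the 7 fibroblast markers 4. Their part in the lower levels of Osmr and the target genes was not tested.

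**Figure D5:**
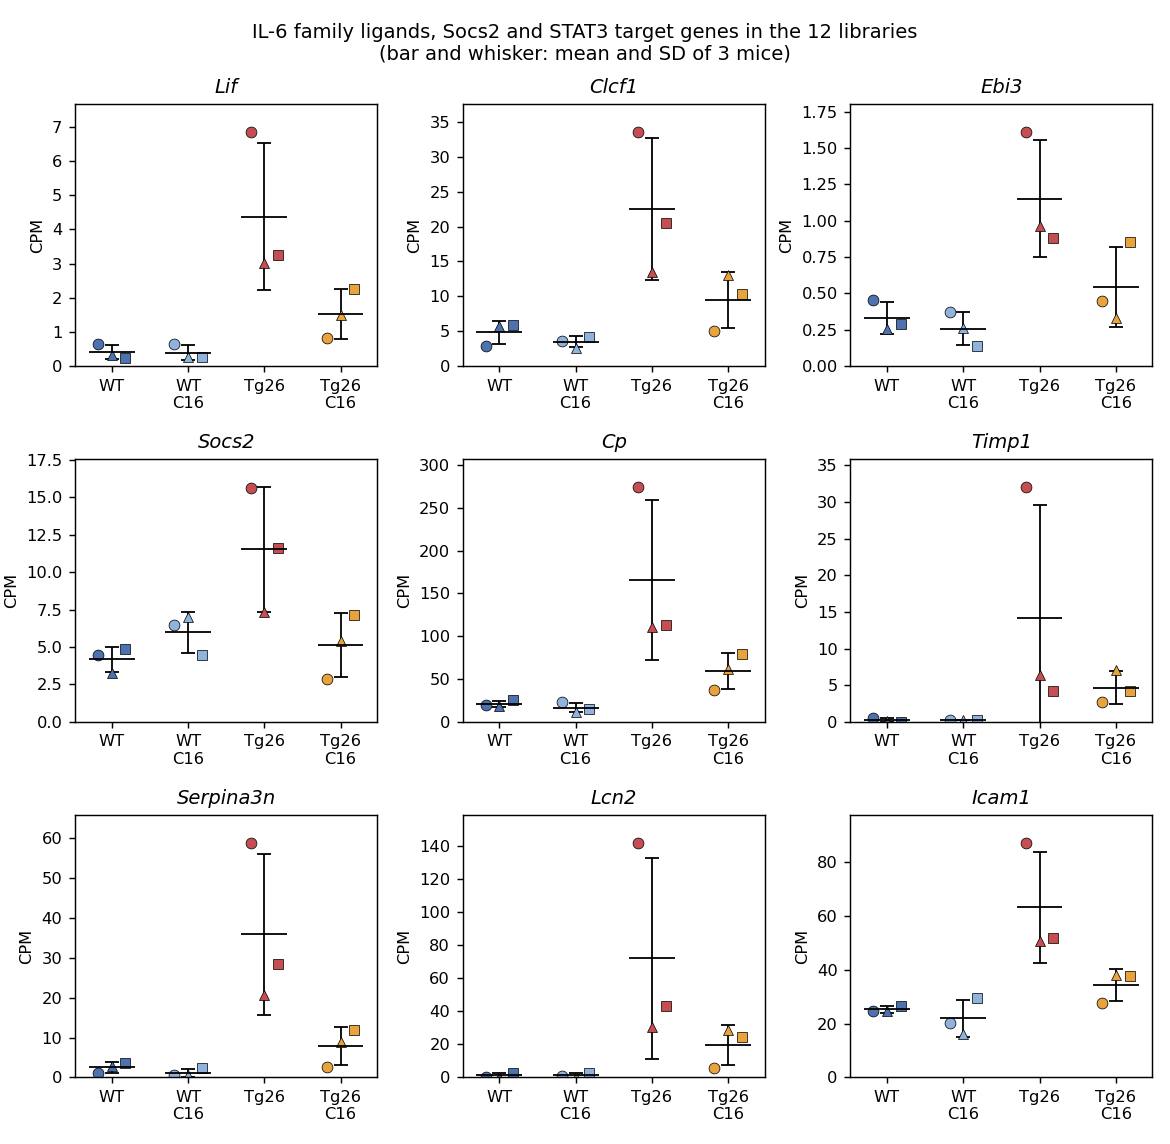
Level in CPM (vertical axes, starting at 0) of 3 IL-6 family ligands, Socs2 and 5 STAT3 target genes in each of the 12 libraries, by group; circles, triangles and squares are replicates 1, 2 and 3, and the bar and whisker give the mean and SD of 3 mice. Tg26 replicate 1 is the highest library in each panel, for example 274 CPM for Cp and 142 CPM for Lcn2, and for Clcf1 it is at 33.6 CPM.

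In WT mice none of the 9 genes passed the test for C16, and no gene at all was called by edgeR (0% of 16094, with 1199 or 7.45% at an unadjusted p under 0.05). DESeq2 and limma-voom called none of the 9 either. None of the 9 had an unadjusted p under 0.05, and Lifr alone did not overlap between these groups, where 14.6% of all genes tested did not. The most precise interval was that of Il6st, -0.10 to 0.25 on the log2 scale, and the widest that of Socs3, -0.94 to 1.23. The lower end of the Socs3 interval does not reach the fall of Osmr with C16 in Tg26 mice (-1.17). A rise of that size lies inside it. Between the treated groups, C16-treated Tg26 against C16-treated WT, none of the 9 was called, where 0.696% of all genes tested were. Socs3 was 3.43-fold higher (edgeR adjusted p = 0.13) and Osmr 1.71-fold higher (edgeR adjusted p = 0.222), and Pim3 was 1.2-fold lower (edgeR adjusted p = 0.395). These 3 did not overlap between the groups, where 18.1% of all genes tested did not. DESeq2 called Socs3 here (adjusted p = 0.00743), and edgeR did so without the filter on low counts (0.0262) and without C16-treated Tg26 replicate 1 (0.0324).

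C16-treated Tg26 mice were also set against untreated WT mice, to ask what difference was left after treatment. None of the 9 was called, where 1.59% of all genes tested were. Socs3 stayed 3.80-fold higher in value, with a 95% interval of 1.87 to 7.74 (edgeR adjusted p = 0.0629), and was called by DESeq2 (adjusted p = 0.00165) and by limma-voom (0.0286). Osmr was 1.58-fold higher with overlapping groups (edgeR adjusted p = 0.184), and Il6ra (1.2-fold) and Stat3 (0.891-fold) had intervals that included no change. Pim3 had a log2 fold change of -0.32 and Lifr of -0.29, with edgeR adjusted p of 0.14 and 0.216. Pim3 was called lower by DESeq2 (adjusted p = 0.0371) and by limma-voom (0.0257), and Lifr by limma-voom only (0.0273). Socs3, Pim3 and Lifr, 3 of the 9, did not overlap between these groups, where 26.6% of all genes tested did not. The difference between the effects of C16 in Tg26 and in WT mice was tested as an interaction. It was not called for any of the 9 genes nor for any other gene by edgeR (0% of genes tested, with 2047 or 12.7% at an unadjusted p under 0.05). For Osmr it was -1.05 on the log2 scale with a 95% interval of -1.79 to -0.32 (edgeR adjusted p = 0.299), and for Socs3 -1.35 with an interval of -2.78 to 0.07. The effect of C16 on Osmr in Tg26 mice is thus not shown to differ from that in WT mice.

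For each of the 9 genes, the genes with the most similar pattern of log2 CPM over the 12 libraries were sought among 12754 genes with a mean of at least 1 CPM. These correlations describe libraries that share group and cell makeup, and genes are not independent of one another. The closest to Socs3 were Stap2 (Pearson r = 0.99), an adaptor known to bind STAT3, and Tlr13 (0.99) and C5ar1 (0.98), receptors of innate immune cells. Osmr was most like Timp2 (0.99), an inhibitor of matrix metalloproteinases, Ccn2 (0.99), a matrix-associated growth factor, and Serpinb6b (0.99). Ccn2 was at a mean of 79.1 CPM in WT, 222 CPM in Tg26, 66.1 CPM in C16-treated WT and 107 CPM in C16-treated Tg26. Il6ra was nearest to Man1c1 (0.98), Apobec1 (0.97) and Ripor1 (0.97), and Stat3 to Dtl (0.97), Zfp516 (0.96) and Prkx (0.96). For Il6st the nearest were Ciao2b (0.92), Hoxd4 (0.92) and Rpp30 (0.91), for Lifr Ints2 (0.95), Ppm1b (0.94) and Pi4k2b (0.94), for Jak2 Eif5b (0.96), Slc6a6 (0.95) and Pcnx (0.93), and for Pim3 Rbks (0.94), Golga5 (0.93) and Stk3 (0.93). Pim1 was most like Zfp362 (0.95), Slc44a2 (0.93) and Bcl2l11 (0.92).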

How the data were processed

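The authors prepared stranded mRNA libraries from total RNA, trimmed adapters with Cutadapt (1.18), mapped the read pairs to mm10 by STAR (2.7.0f), and ran RSEM (1.3.1) on the Ensembl 96 annotation. The authors deposited raw expected counts, whole in every cell, so none was rounded. The counts were analysed in R (4.3.3): genes that passed edgeR's filterByExpr (16094 of 55450) were scaled by TMM and tested with the quasi-likelihood F test of edgeR (4.0.16), fitted to the 4 groups together with no covariate. Adjusted p-values are Benjamini-Hochberg values with a threshold of 0.05, and confidence intervals are 95%. In edgeR and limma-voom the adjustment was over all genes tested. DESeq2 was left at its default, which can drop genes of low mean count before adjustment. Alternatives were DESeq2 (1.42.0), limma-voom (3.58.1) with quality weights, RLE scaling, library totals alone, no filter or a stricter filter (1 CPM in 3 libraries), only the groups compared, a replicate block, a covariate of Y-linked genes, and each library left out in turn. The values of the listed genes under these alternatives were added after seeing the data. The edgeR script was tested on simulated data. Groups and replicate numbers came from the sample labels, and no pair of libraries of the same group agreed within sampling noise. Pairs from different groups were not compared in this way. The labels do not say more of the mice than genotype, treatment and age, so p-values measure the spread between these 3 mice a group. The paper studied male and female mice, but all 12 libraries held Y-linked transcripts, at a mean log2 CPM of 4.68 to 5.38. None of the 12 lacked them, as a female mouse would.

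The 9 genes and the gene lists were chosen with earlier results of these data known. Named beside them are, in each list, the 4 tested genes with the smallest adjusted p in Tg26 against WT and any called in the opposite direction, and for each of the 9 the 3 genes of highest Pearson r. Of the genes this rule names, 2 are not reported here. Fos, Fga, Fgb, Icam1 and Il11 were named after their values were seen. Promoter sequences are RefSeq's (GRCm38.p6) and all 9 genes were matched. The motif was sought in the 250 bases before each start. Exon lengths and positions are from the annotation the authors counted on. No transcript of another gene matched those of the 9 at 95% identity over 200 bases, except where Il6ra and Pim1 overlap the predicted genes Gm42809 and Gm26885 on the opposite strand, which had 1 and 48 counts.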

Additional observations from a re-analysis of the deposited data

How the results depend on the processing

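Among the 9 genes, the rises of Socs3 and Osmr in Tg26 passed the threshold under every alternative tried and with each library left out. The number called in Tg26 against WT was 4, and 3 to 5 under the alternatives. With C16 in Tg26 it was 1, against 4 with DESeq2, 0 with only the groups compared, 0 with the replicate block, 0 with the Y-linked covariate and 0 to 1 with a library left out. Over all genes that comparison had 550 calls, against 0 with only the groups compared and 94 with the Y-linked covariate. In C16-treated Tg26 against C16-treated WT it was 0, against 1 with DESeq2, 1 without the filter and 0 to 1 with a library left out. In C16-treated Tg26 against WT it was 0, against 2 with DESeq2, 3 with limma-voom, 1 with library totals alone, 1 without the filter and 0 to 1 with a library left out. The cause of these differences was not tested.

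Signs that turned belonged to genes that were not called. With library totals alone the log2 fold change of Jak2 became 0.24 in Tg26 against WT, 0.0693 in C16-treated Tg26 against C16-treated WT, 0.0675 against WT and -0.17 in the interaction, that of Lifr -0.10 with C16 in Tg26 and 0.0164 between the treated groups, that of Pim3 0.0155 with C16 in WT, and those of Stat3 and Pim1 0.0158 and 0.0593 in C16-treated Tg26 against WT. That scaling moved the median of all genes to 0.29 in Tg26 against WT and to -0.14 with C16 in Tg26. With the Y-linked covariate Jak2 became 0.0615 in Tg26 against WT and -0.0664 in the interaction, and with C16 in Tg26 Lifr became -0.0592 and Il6st 0.0191. With limma-voom Jak2 became 0.0194 with C16 in Tg26 and Pim1 0.36 in the interaction. With a library left out, values with C16 in Tg26 ran from -0.0353 to 0.0124 for Il6st, -0.0894 to 0.18 for Lifr and -0.0958 to 0.0533 for Jak2. With C16 in WT they ran from -0.12 to 0.38 for Socs3, -0.30 to 0.0326 for Osmr and -0.36 to 0.0604 for Il6ra. Between the treated groups they ran from -0.0704 to 0.44 for Stat3, -0.0513 to 0.61 for Pim1 and -0.11 to 0.0231 for Jak2, in C16-treated Tg26 against WT from -0.28 to 0.11 for Pim1 and -0.38 to 0.0248 for Stat3, and in the interaction from -0.0365 to 0.12 for Jak2 and -0.38 to 0.29 for Pim1.

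The labels do not say whether the replicate numbers pair the samples. Of 18 correlations between same-numbered libraries, 7 were over 0.1 (-0.23 to 0.23). Libraries of unlike number were not compared in this way, so pairing was not settled. With the replicate block, 5 of the 9 genes were called in Tg26 against WT, Lifr among them (adjusted p = 0.0453), and no gene of the whole table with C16 in Tg26, against 550 without the block. Osmr was then at a log2 fold change of -1.19 (adjusted p = 0.0614). Of the other genes named in Tg26 against WT, Stat2 (adjusted p = 0.053) and Pias2 (0.0581) lost their calls with the block. Over all genes, DESeq2 called 1959 with C16 in Tg26. With 3 mice a group, low genes such as Socs3 in WT had wide intervals, and Il6 and Osm could not be tested.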
